A study of Mus musculus with 8 samples.

Results

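The microRNA miR-122 was followed in mouse liver through both strands of its precursor, mmu-miR-122, the guide strand, and mmu-miR-122*, the passenger strand. The probes were picked by these names, with earlier results of these data known. They were 2 of the 1135 miRNA probes of the array, of which 1096 stood for mouse miRNAs. Each strand had 1 probe and 1 spot on every array. Total RNA of whole liver was hybridised to 8 one-colour arrays, of which 4 were controls fed a normal diet and 4 came from mice whose diet lacked methionine and choline (MCD), with no other treatment given in the labels. The study's methods describe male C57BL/6N mice that were 8 weeks old when the diets began, and give 15 weeks of feeding, whereas the deposited labels give 23 weeks. The labels number the liver samples of each diet without naming mice, and the tests below therefore rest on the spread among these samples, which may be technical.

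A miRNA precursor is cut into a short duplex, of which 1 strand, the guide, is loaded into an Argonaute protein and pairs with target mRNAs through its seed, while the passenger strand is mostly degraded. miR-122 is made almost only by hepatocytes, in which it is known as the most abundant miRNA, and it is known for its part in cholesterol and fatty acid metabolism and in keeping hepatocytes differentiated. The MCD diet is a model of fatty liver with inflammation and fibrosis. In RNA of whole liver, fewer hepatocytes and less miR-122 per hepatocyte cannot be told apart.

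Before the results, the arrays were compared on measures outside miR-122. The median local background, measured beside the spots, was 144 to 158 units on the control arrays and 123 to 140 on the MCD arrays, without overlap (exact permutation test, two-sided, p = 0.0286). The spike controls had a median of 14113 ± 263 (SD, n = 4) on control and 16072 ± 1387 on MCD arrays (exact p = 0.114), and the summed signal of all mouse probes was 383748 ± 33942 against 385520 ± 39972 (exact p = 1). A scanner file column headed Cell holds 1 for every control array and 2 for every MCD array. It may number the array's place on a slide, which no source states, and what it stands for cannot be told apart from diet. The part of these differences in the results was not tested.

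The guide strand was dimmer in MCD liver, at 0.472 of its control intensity. The spot of miR-122 read 40551, 39849, 36622 and 30938 units on the control arrays, with a mean of 36990 ± 4382 (SD, n = 4). It read 18846, 18120, 18382 and 14535 units on the MCD arrays, with a mean of 17471 ± 1980. The lowest control array lay above the highest MCD array, and the arrays numbered 4 were the dimmest of both diets. On the log2 scale the difference was −1.08, a 2.12-fold lower geometric mean (exact permutation test over all 70 assignments of arrays, two-sided, p = 0.0286). This is the smallest p that 4 against 4 arrays allow, and it was the p of each of the 7 measures of the strands tested in this way, raw and after Benjamini-Hochberg adjustment.

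The spot of miR-122 was far from both ends of the scanner's range. Its intensity was 47.2% to 61.9% of the largest value the scanner can store on the control arrays and 22.2% to 28.8% on the MCD arrays. The blank limit, set 2 SD above the blank spots' mean, was exceeded 127- to 162-fold on control and 60.5- to 80.9-fold on MCD arrays. The local background beside the spot was 141 to 158 units on control and 122 to 135 on MCD arrays.

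The passenger strand was also dimmer in MCD liver, by a smaller factor. The spot of miR-122* read 1271, 1196, 1097 and 1144 units on the control arrays, with a mean of 1177 ± 74.6 (SD, n = 4). It read 1015, 839, 741 and 762 units on the MCD arrays, with a mean of 839 ± 125. The diets again did not overlap, with 1097 on the lowest control array and 1015 on the highest MCD array. The log2 difference was −0.50, a 1.41-fold lower geometric mean (exact permutation test, p = 0.0286). The test lost its call when any 1 control array was left out, with differences between −0.53 and −0.46 in those 4 cases (exact p = 0.0571 in each). The diets still did not overlap in them, and with so few possible assignments of arrays the p moves in coarse steps. The spot lay 4.57 to 5.09 times above the blank limit on control and 3.16 to 4.36 times above it on MCD arrays, so that background takes a larger part of this value than of the guide's.

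**Figure D1:**
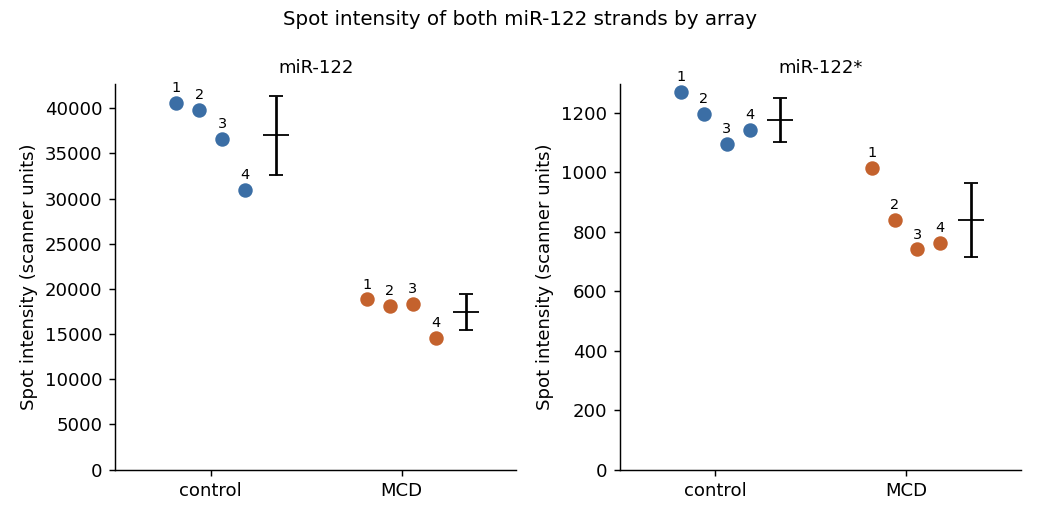
Spot intensity of miR-122 (left) and miR-122* (right) on each array, in scanner units on a linear axis, with 4 arrays per diet. Points are arrays, and horizontal lines with bars are group means with SD. The control arrays of miR-122 sit between 30938 and 40551 and the MCD arrays between 14535 and 18846, and neither strand overlaps between diets.

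The share of the array's mouse signal held by miR-122 fell with its intensity. After the local background was taken off every spot, the guide held 9.41%, 10.5%, 9.59% and 8.87% of the summed signal of all mouse probes on the control arrays, or 9.59% ± 0.67 (SD, n = 4). On the MCD arrays it held 4.45%, 4.89%, 4.39% and 4.26%, or 4.50% ± 0.27. The share was 5.09 percentage points lower, or 2.13-fold, and the highest MCD array lay below the lowest control array (exact permutation test, p = 0.0286). The size of this difference depended on the background: it was −3.39 points from uncorrected intensities and −6.06 points with the mean of the blank spots taken off (exact p = 0.0286 in each). The passenger strand held 0.256%, 0.272%, 0.248% and 0.282% on the control arrays, and 0.210%, 0.189%, 0.143% and 0.181% on the MCD arrays. Its mean share thus went from 0.265% ± 0.0150 to 0.181% ± 0.0278, a 1.46-fold difference without overlap (exact p = 0.0286). That difference was −0.0837 points, beside −0.0549 from uncorrected intensities. Without both strands, the summed mouse signal was 345896 ± 30345 units on control and 367482 ± 38205 on MCD arrays (exact p = 0.371).

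Among the 1096 mouse probes, miR-122 held rank 2 by intensity on every control array and rank 4, 3, 3 and 3 on the MCD arrays (exact permutation test, p = 0.0286). A rank here orders spots, and a spot's intensity depends on its probe as well as on the miRNA, so it does not order amounts. The probe of miR-3968 was the brightest on all 8 arrays, with a mean of 46257 units on control and 51724 on MCD arrays. The probe of miR-5100 lay directly below miR-122 on all 4 control arrays, at 20608 to 27052 units, and was brighter than miR-122 on all 4 MCD arrays. Its mean was 23175 ± 2832 units on control and 28838 ± 4131 on MCD arrays (SD, n = 4), and these groups overlapped, with 27052 on control array 1 and 24537 on MCD array 2. Whether its own level changed cannot be read from the quantile-normalized values, which follow from rank alone, as they do for the other brightest probes. On those values miR-5100 was higher by 0.69 (limma adjusted p = 0.000128). On MCD array 1, miR-690 also lay above miR-122, at 19648 units. The probes of miR-690 and miR-720 completed the 5 brightest of the control arrays, and neither passed the test on quantile-normalized values (limma adjusted p = 0.127 and 0.167).

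The passenger strand held ranks 49, 46, 47 and 44 on the control arrays, a mean of 46.5 ± 2.08 (SD, n = 4). Its ranks on the MCD arrays were 57, 58, 74 and 52, a mean of 60.25 ± 9.54. The difference was 13.75 places (exact permutation test, p = 0.0286), and MCD array 3, where the strand was dimmest, lay farthest down. Without that array the difference was 9.17 places (exact p = 0.0286). The call was lost without any 1 of the control arrays, at 12.9 to 14.6 places (exact p = 0.0571 in each). The ranks of the diets still did not overlap in these cases, where p again moves in coarse steps.

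**Figure D2:**
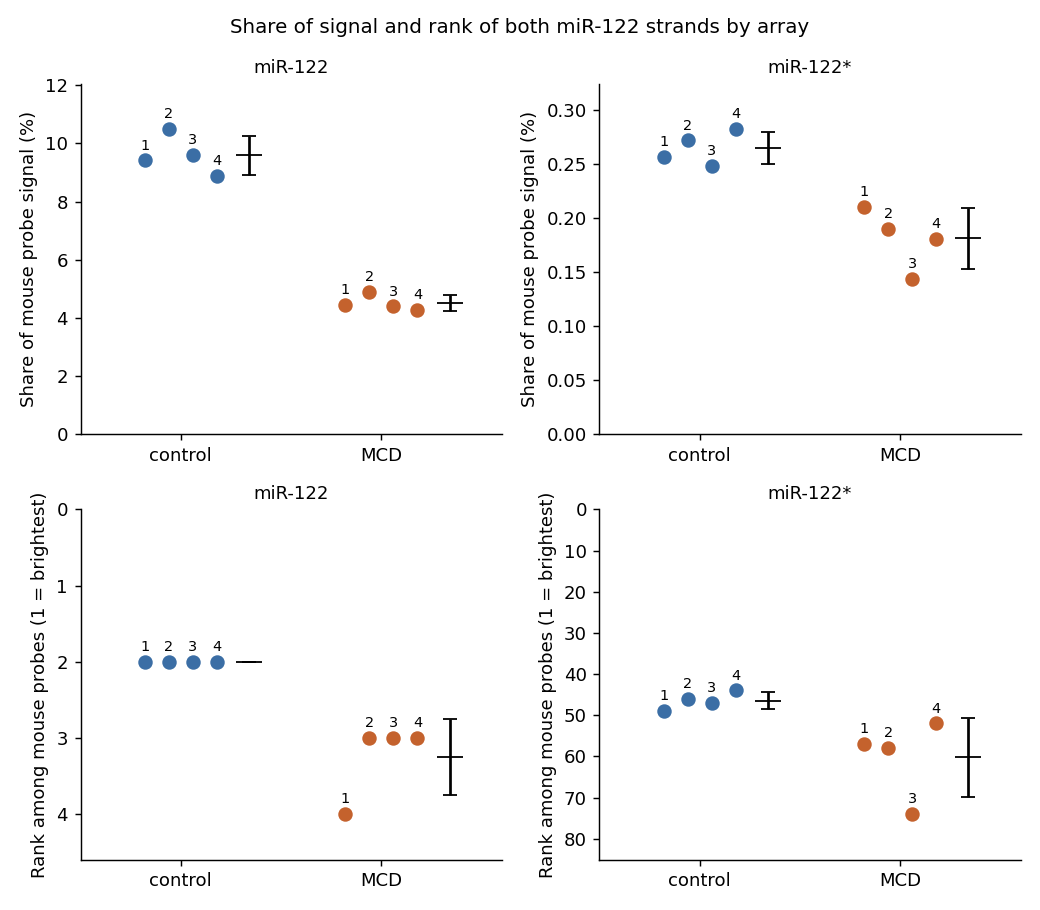
Share of the summed mouse probe signal in percent (top) and rank among the 1096 mouse probes (bottom, rank 1 at the top) of miR-122 and miR-122* on each array, with 4 arrays per diet. Lines with bars are group means with SD. The share of miR-122 lies between 8.87% and 10.5% on control and between 4.26% and 4.89% on MCD arrays.

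Both strands were then tested within a fit of all probes. After background correction and quantile normalization, limma called 110 of the 1076 tested probes at an adjusted p under 0.05, 62 higher and 48 lower in MCD liver. Both strands of miR-122 were among those lower, where 4.46% of all tested probes lay. Over all tested probes, 5.76% were called higher and 10.2% in either direction. The guide was lower by −0.83 ± 0.13 on the log2 scale (SE, 95% interval −1.11 to −0.56, limma adjusted p = 0.000955). The passenger strand was lower by −0.57 ± 0.15 (95% interval −0.90 to −0.24, limma adjusted p = 0.0287). By the size of the fall, the guide stood 13th and the passenger strand 29th among the tested probes.

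Quantile normalization acted on the guide strand in a way that can be read from its values. It gives each array the same set of values in rank order, so that miR-122, at rank 2 on every control array, received the same 14.98 on all of them. On the MCD arrays it received 13.73, 14.29, 14.29 and 14.29, and the lowest of these belongs to the array where it was at rank 4. The normalized values of miR-122* were 9.84, 9.97, 9.94 and 10.02 on control and 9.54, 9.49, 8.85 and 9.61 on MCD arrays, again without overlap. Dividing each array by its median in place of quantile normalization left the spread in place, with 15.14 ± 0.23 (SD, n = 4) on control and 14.09 ± 0.21 on MCD arrays for miR-122. The change of miR-122 was then −1.05 (limma adjusted p = 0.000112), which was the 7th largest fall.

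The direction of both strands was the same under every scaling tried, while the size of the change and the call of the passenger strand were not. The guide changed by −1.09 without scaling, −1.07 with scaling to the 75th percentile, −1.12 with cyclic loess and −1.31 with scaling to the spike controls. The last of these scalings moved the median of all tested probes by −0.24, and relative to that median the guide was still lower. In the authors' processed values, the guide was lower by −1.19 (limma adjusted p = 0.000851). The passenger strand changed by −0.54 with global scaling (limma adjusted p = 0.0285) and by −0.80 with scaling to the spike controls (limma adjusted p = 0.000281). In the authors' processed values it was lower by −0.72 without passing the threshold (limma adjusted p = 0.0599).

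Leaving out any 1 control array removed the limma call of the passenger strand, and no omission of 1 array removed that of the guide. Leaving out 1 array at a time kept miR-122 between −0.92 and −0.68, with a limma adjusted p of at most 0.00490. The normalized values of miR-122 follow from its rank and were the same on all control arrays. These fits therefore measure little of its spread among arrays. In raw intensity, the same omissions gave −1.16 to −0.996 for miR-122 (exact permutation test, p = 0.0286 in each). For miR-122* the limma fits gave −0.64 to −0.40, and the call was lost without control array 1, 2, 3 or 4, at a limma adjusted p of 0.0556, 0.0668, 0.0705 and 0.101. When the mean of the blank spots was subtracted in place of normexp, the guide missed the threshold narrowly at −0.84 (limma adjusted p = 0.0553), with 15 probes lower and 29 higher in all.

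**Figure D3:**
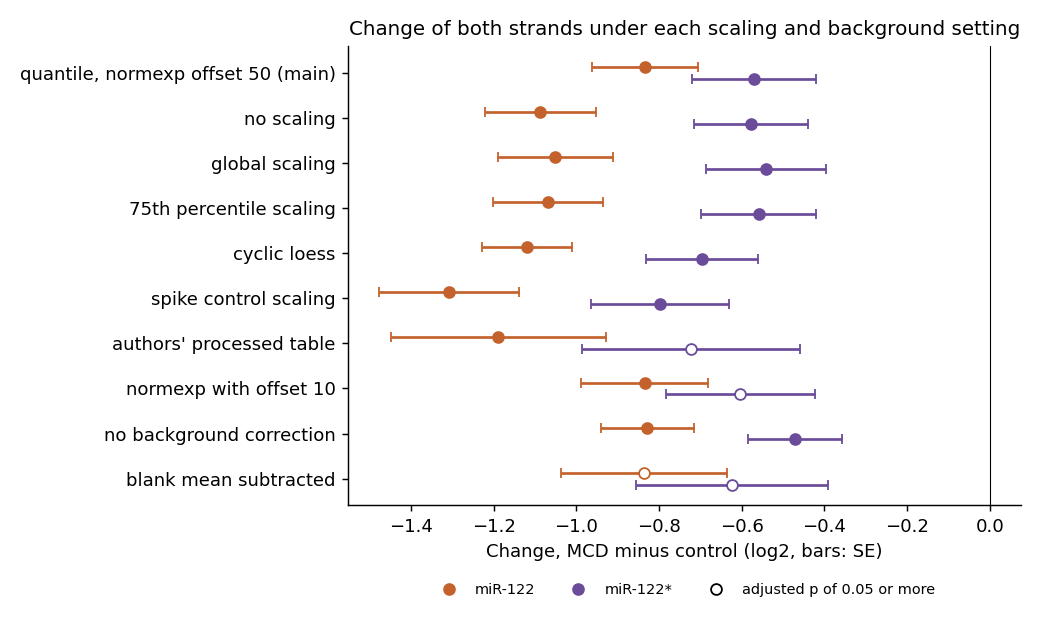
Change of miR-122 and miR-122*, MCD minus control in log2 units, under each scaling and background setting of the 8 arrays. Bars are SE, and filled points have an adjusted p under 0.05. All points lie below 0, the guide between −1.31 and −0.83 and the passenger strand between −0.80 and −0.47.

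The change of the guide was compared directly with that of the passenger strand. On the same array, the log2 intensity of miR-122 exceeded that of miR-122* by 5.16 ± 0.15 on control and 4.65 ± 0.23 on MCD arrays (SD, n = 4), and the diets did not overlap. The guide thus differed by 0.51 log2 units more than the passenger strand (exact permutation test, p = 0.0286). This difference was not robust to the processing. Without background correction it was −0.58 (exact p = 0.0286). With the blank mean subtracted it was −0.47 (exact p = 0.0571), and after quantile normalization it was −0.26 (exact p = 0.429). It also missed the threshold without any 1 of the control arrays, MCD array 1 or MCD array 4. Its values there were −0.58 to −0.43 (exact p = 0.0571 in each). The diets still did not overlap in these cases, and the p moves in coarse steps, so these omissions alone do not show that the difference is unstable.

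Other precursors with both strands on the array were set beside miR-122 as a description, and the strand with the asterisk was taken as the passenger from the names alone. In 253 pairs both strands had been tested. Both strands were called lower in 2 pairs, miR-122 and miR-30e, and both were called higher in 1 pair. The unmarked strand alone was lower in 11 pairs and higher in 28, and the marked strand alone was lower in 9 and higher in 4. On the quantile-normalized values, the gap between the changes of the strands had a median size of 0.22 log2 units over all pairs. On these values 98 pairs had a larger gap than the 0.26 of miR-122. The gap of −0.51 given above for miR-122 was taken before quantile normalization and cannot be set beside these. Most marked strands were dim. In only 6 pairs did both strands exceed the negative control limit, set in the same way from the negative control spots, on all 8 arrays, and 2 of these were miR-122 and miR-30e. In the other 4, miR-140, miR-22, miR-3072 and miR-30a, neither strand passed the test. For miR-30e, a member of a family expressed in many tissues, the unmarked strand changed by −0.43 and the marked strand by −0.34 (limma adjusted p = 0.0459 and 0.0336).

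miR-122 is 1 of several miRNAs for which hepatocytes are a main source in liver. The list used here held 13 probes, namely both strands of miR-122, miR-192, miR-215, miR-148a and miR-802, together with miR-194 and the passenger strands of its 2 precursors. Of these, 12 were tested, 5 were lower, 0 were higher (limma, 0 also at an unadjusted p under 0.05) and 7 did not pass, among which miR-192* had the smallest limma adjusted p (0.0862). The median change of the 12 was −0.28, beside −0.01 over all tested probes, of which 4.46% were called lower. Without the strands of miR-122, 3 of 10 were lower and the median was −0.16. The guide sequences of miR-194, miR-192, miR-215 and miR-148a are shown to set the seed of each beside its change. They are RefSeq entries on GRCm38.p6, with the seed, bases 2 to 8, in capitals.
miR-194-5p: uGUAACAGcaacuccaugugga
miR-192-5p: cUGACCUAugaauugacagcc
miR-215-5p: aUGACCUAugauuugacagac
miR-148a-3p: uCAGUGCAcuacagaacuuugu
miR-192 (chr19:6264857-6264877, plus strand) and miR-215 (chr1:185313610-185313630, plus strand) carry the same seed and differ at 3 of 21 positions, and each lies close to a copy of miR-194 (chr19:6264658-6264679 and chr1:185313325-185313346, both on the plus strand). miR-148a lies at chr6:51269829-51269850 on the minus strand. The unmarked names of the array were taken as these arms.

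miR-194 was lower in all 4 MCD livers. Its spot read 3844 to 4855 units on control and 2357 to 3151 on MCD arrays, with means of 4482 ± 473 and 2818 ± 374 (SD, n = 4). The change was −0.65 ± 0.10 (SE, limma adjusted p = 0.00131). miR-192, which has the seed of miR-215, went from 5660 ± 1707 to 3180 ± 760 units, and its groups overlapped, with 3494 to 7323 on control and 2411 to 4225 on MCD arrays. Its change was −0.61 ± 0.17 (limma adjusted p = 0.0367). miR-148a, known in liver for its part in cholesterol handling, read 1009 to 1413 units on control and 815 to 1126 on MCD arrays, which also overlap (−0.53 ± 0.15, limma adjusted p = 0.0379).

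The probe of miR-215 was close to the blank spots on both diets. It changed by 0.16 ± 0.15 (limma adjusted p = 0.612) and exceeded the blank limit on 2 of the 4 control arrays and on all 4 MCD arrays, with 232 to 268 units on control and 240 to 268 on MCD arrays. The other probes of the list that did not pass were also dim, with means on the control arrays of at most 315 units. Their changes were −0.39 for miR-192*, −0.17 for miR-194-1*, −0.15 for miR-148a*, −0.04 for miR-802*, 7.49e-05 for miR-802 and 0.14 for miR-194-2*. The probe of miR-215* was not tested. The 5 hepatocyte probes called lower, among them the strands of miR-122, were thus the brightest of the list in control liver, a division seen after the calls. miR-192*, not called, also exceeded the blank limit on all 4 control and all 4 MCD arrays. In a limma fit of only the 319 probes above the blank limit on all 8 arrays, 49 were called lower.

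**Figure D4:**
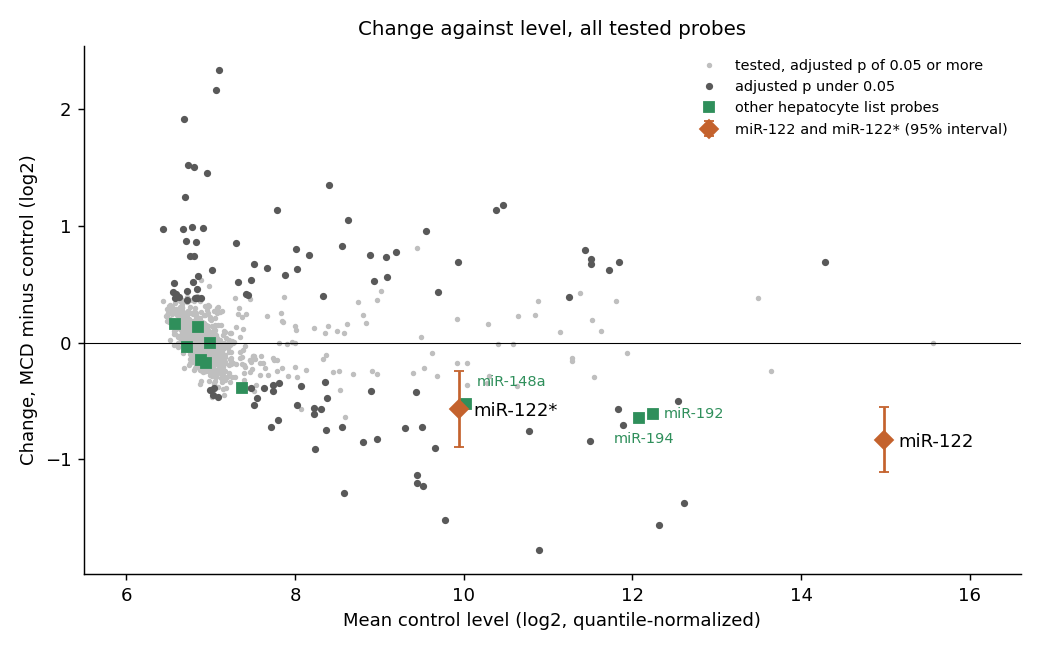
Change, MCD minus control, against the mean control level of the 1076 tested probes, both as quantile-normalized log2 values. Dark points have an adjusted p under 0.05, squares are the other hepatocyte probes, and diamonds are miR-122 and miR-122* with 95% intervals. miR-122 lies at a level of 14.98 with a change of −0.83, and the squares without a name are near the dim end.

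Markers of other liver cells moved as well, and their part in the change of miR-122 was not tested. Beside the counts below, 5.76% of all tested probes were called higher and 4.46% lower. Mesenchymal miRNAs mark stellate cells and fibroblasts, and of the 12 tested 7 were higher and 0 lower (limma, 0 lower also at an unadjusted p under 0.05), with a median of 0.64 and a summed intensity of 4896 to 5670 units on control and 6408 to 11241 on MCD arrays. The probe shared by miR-199a-3p and miR-199b changed by 1.35 and miR-125b-5p by 0.96. Of 8 tested leukocyte miRNAs 4 were higher (median 0.25, sums of 2673 to 3020 and 2834 to 3699 units), with miR-223, of myeloid cells, at 0.63 and miR-342-3p at 0.42. Of the 5 miR-200 family probes, which mark epithelia such as bile ducts, 3 were higher (median 1.00, sums of 1317 to 1337 and 1825 to 3922 units), with miR-200a at 2.34 and miR-200b at 2.17. Of the endothelial pair miR-126-3p was higher at 0.67 and miR-126-5p did not pass at 0.09, with sums of 3181 to 4137 and 4025 to 6246 units. None of the 5 erythroid probes passed (limma, median −0.03, sums of 1614 to 2768 and 1784 to 3006 units), and 1 of them, miR-486* at −0.32, had an unadjusted p under 0.05 (limma adjusted p = 0.157). miR-451, next by p, stood at 0.81 ± 0.44 (SE, limma adjusted p = 0.318). The summed hepatocyte list without miR-122 went from 11217 to 15698 units on control to 7956 to 10398 on MCD arrays, without overlap. Most of this sum came from miR-192 and miR-194, with control means of 5660 and 4482 units, and miR-192 by itself overlapped between diets.

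The probes whose pattern over the 8 arrays lay nearest to that of miR-122 were found among the 145 others that exceeded the negative control limit on every array. Likeness was the root mean square difference between profiles, each centred on its own mean, in log2 units after global scaling. Its median was 0.59 and its highest value 1.33. miR-101b was nearest at 0.12, followed by miR-3077* at 0.18, miR-194 at 0.20, miR-711 at 0.26 and miR-5126 at 0.27. The passenger strand of miR-122 stood 8th at 0.30. The guide of miR-101b, a broadly expressed miRNA, is shown as the nearest profile (chr19:29135338-29135356, plus strand, GRCm38.p6, seed in capitals).
miR-101b-3p: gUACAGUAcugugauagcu
Its seed differs from those of miR-194, miR-192, miR-215 and miR-148a.

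With global scaling, where miR-122 changed by −1.05, miR-101b changed by −0.95, miR-3077* by −1.07, miR-194 by −0.66, miR-711 by −1.43 and miR-5126 by −0.85. miR-101b went from 821 ± 106 to 476.5 ± 22.6 units (SD, n = 4). On MCD array 4, where miR-122 was dimmest, it lay at −0.82 relative to its mean over the arrays and miR-101b at −0.60 relative to its own. The order of likeness rests on 8 arrays of 2 diets, so that any probe with a change of about the same size comes near, and it is given as a description.

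**Figure D5:**
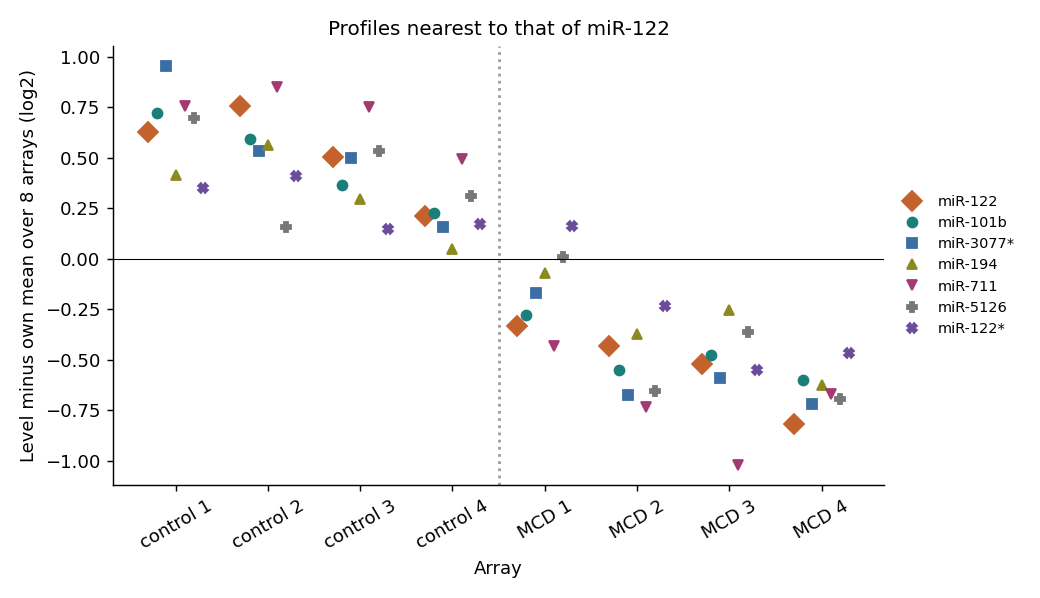
Log2 level, minus the probe's own mean over the 8 arrays, of miR-122, of the 5 nearest probes and of miR-122*, after global scaling. Each point is 1 array, and the dotted line separates the diets. miR-122 and miR-101b lie above 0 on the 4 control arrays and below it on the 4 MCD arrays, whereas miR-122* is above 0 on MCD array 1.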

How the data were processed

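Liver RNA was measured on 8 one-colour mouse miRNA chips (3D-Gene), 4 per diet. Groups and replicate numbers follow the labels. The deposited scanner files give, per the file headers, the pixel median intensity of each spot and that of its surroundings, uncorrected and linear. The authors' table of processed intensity values, blank-subtracted with 1 factor per array, served as an alternative. The labels name the dye Hy5, whereas the scanner columns carry the wavelength of the green dye, and which was read is not settled. All arrays were read alike.

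Each array had 3136 spots, of which 1818 were blank, 24 negative and 16 spike controls. Intensities were background-corrected over all spots with normexp (offset 50), taken as log2 and quantile-normalized over the probes, and tested in limma 3.58.1 (R 4.3.3, lmFit and eBayes, two-sided, Benjamini-Hochberg) where a spot exceeded the blank mean plus 2 SD on at least 4 arrays. The offset makes changes of dim probes too small. The fit was tested on simulated data. Exact permutation tests over arrays were run in Python 3.11.15 on 7 single measures. Scaling, background, offset, filter, array weights, replicate block, the methods' t-test and each left-out array were tried as alternatives. The number of arrays limits the precision.

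The members and lists were chosen with earlier results of these data known. Named probes are the 2 strands, the hepatocyte list, of each other list the 2 tested probes with the smallest p, the 5 brightest control probes and the 5 profiles nearest to miR-122. The probes of the strand pairs and of the largest intensity differences were named after their values were seen. Sequences came from RefSeq (GRCm38.p6), where 5 of 5 names looked up for printing matched.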

Additional observations from a re-analysis of the deposited data

Results flagged for a closer look

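Within the 4 MCD arrays, 4 values stood apart from the other 3 of their group by Dixon's criterion at the 95% level, which chance meets in about 1 in 20 groups. The raw log2 intensity of miR-122 was lowest on MCD array 4, at 13.83. Its rank was highest in number on MCD array 1, at 4, where the other arrays had 3. With 3 equal values any other value meets the criterion. The rate of 1 in 20 therefore holds neither for this rank nor for the quantile-normalized value of miR-122. The quantile-normalized log2 value of miR-122 was lowest on the same MCD array 1, at 13.73, and this follows from the rank by the construction of the normalization, since its raw intensity there was the highest of the 4. The quantile-normalized log2 value of miR-122* was lowest on MCD array 3, at 8.85.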

How the results depend on the processing

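No direction reversed for either strand, raw or normalized, share or rank, under any alternative tried. In limma, miR-122 lost its call with the blank mean subtracted (−0.84, adjusted p = 0.0553), and miR-122* lost it with the blank mean subtracted (−0.62, 0.201), an offset of 10 (−0.60, 0.0604), the authors' values (−0.72, 0.0599) and the methods' t-test after Benjamini-Hochberg (−0.57, 0.144; unadjusted, the methods' t-test gave 0.00101 for miR-122 and 0.0190 for miR-122*). The cause was not tested. The raw difference of miR-122* with global scaling was −0.45 (exact p = 0.0571). The share difference of miR-122 and miR-122* was −3.39 and −0.0549 points from uncorrected intensities, −6.06 and −0.0985 with the blank mean subtracted, −6.20 and −0.0965 over probes above the blank limit on all 8 arrays and −6.08 and −0.0984 in the authors' values (exact p = 0.0286 in each). The gap between the strands was −0.48 with an offset of 10, −0.47 with the blank mean subtracted and −0.47 in the authors' values (exact p = 0.0571 in each), and −0.26 after quantile normalization (exact p = 0.429). Against 62 probes higher and 48 lower, there were 29 and 15 with the blank mean subtracted, 34 and 93 with spike scaling, 123 and 94 with the methods' t-test unadjusted and 37 and 24 after Benjamini-Hochberg, and 30 lower with global and 31 with 75th percentile scaling. Leaving out 1 array gave 45 to 70 higher and 28 to 48 lower (28 without control array 1 or 4, 30 without MCD array 3, 31 without control array 3), a raw difference of −1.16 to −0.996 for miR-122 and −0.59 to −0.44 for miR-122*, a share difference of −5.33 to −4.79 and −0.0934 to −0.0712 points, a rank difference of 1 to 1.33 and 9.17 to 16.5 places, limma changes of −0.92 to −0.68 and −0.64 to −0.40, and a gap between strands of −0.60 to −0.43. No source states that same-numbered arrays of the diets are paired. Their deviations correlated at −0.00685 to 0.0953, and 5 of 8 arrays correlated best with their own number. These values do not decide whether the arrays are paired. With the replicate block, limma gave −0.83 and −0.57 and 67 higher and 51 lower probes, and with the block and global scaling, chosen after seeing the data, −1.05 and −0.54 and 85 and 39 probes. Exact sign flips within pairs cannot go below p = 0.125, which each of the 7 measures reached at an unchanged difference (−1.08, −0.50, −5.09, −0.0837, 1.25, 13.75 and −0.51). The dim passenger strand, at 3.16 to 5.09 times the blank limit, limits what can be read from the gap between strands.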

Other observations

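In units of spot intensity, miR-122 had the largest fall of all mouse probes, 19519 units between the group means, which was 29.96% of the summed falls. The next were miR-2137 at −5674, miR-2861 at −4629 and miR-5126 at −3599 units. miR-122* stood 22nd, with a fall of 338 units, or 0.518% of the sum. The largest differences in the other direction were those of miR-5100 at 5663 and miR-3968 at 5467 units. These values are not corrected for how each probe responds, so they do not compare amounts of miRNA.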
